A study of Mus musculus with 6 samples.

Results

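The genes described here carry iron into stromal cells, reduce it, store it, free it from heme and let it out again. They are the 10 rows of the deposited count table with the symbols Slc39a14, Slc11a2, Tfrc, Steap4, Steap3, Fth1, Ftl1, Hmox1, Cp and Slc40a1, out of 55011 gene rows, and each was found once. Polyadenylated RNA was counted in 6 libraries of cultured stromal cells from mouse visceral fat (VAT in the sample labels, eWAT in the design text). All 6 libraries came from cells labelled Il33-EGFP-, that is, without the green fluorescence that reports Il33, which encodes an alarmin cytokine. For 3 days the cells were kept with 10 nM irisin/HSP90α (3 libraries, called irisin here) or with phosphate-buffered saline (PBS, 3 libraries). Irisin is a hormone cleaved from a muscle membrane protein, and HSP90α is a chaperone found both in cells and around them. Titles of the samples mention only irisin, and no label says what the PBS controls held besides PBS. The labels give no number of mice and do not call the replicates separate cultures, so that p-values here reflect library-to-library spread alone, which may be technical.

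Iron enters most cells bound to transferrin through the transferrin receptor, or unbound through metal transporters of the cell membrane. Inside, reductases turn ferric into ferrous iron, ferritin shells of heavy and light subunits store it, and heme oxygenase frees it from heme. Ferroportin is the only known iron exporter of mammalian cells and works together with copper ferroxidases. Iron regulatory proteins sense the metal and bind a hairpin in certain mRNAs, the iron-responsive element. In the 5′ untranslated region (UTR) this hairpin blocks translation when iron is scarce, and in the 3′ UTR it protects the mRNA from decay. In fat, resident macrophages are known to take up iron and hand it on.

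Sequences matching the iron-responsive element were found in 4 of the 10 genes and are shown first, because this is the element through which iron is known to govern these mRNAs after transcription. GENCODE M21 transcripts (build mm10) were searched for C, any 5 bases, CAGTGN, and 5 bases pairing with the 5 before the loop, with G-T pairs allowed. Each run of 29 bases is given 5′ to 3′ on the gene's own strand as DNA, with the 6 loop bases in capitals. The first 3 lie in 5′ UTRs and the 4 of Tfrc in its 3′ UTR.
Fth1, chr19:9982732-9982760, plus strand: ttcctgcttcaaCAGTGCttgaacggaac
Ftl1, chr7:45459779-45459807, minus strand: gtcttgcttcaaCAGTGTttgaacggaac
Slc40a1, chr1:45925465-45925493, minus strand: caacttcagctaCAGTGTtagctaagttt
Tfrc, chr16:32631219-32631247, plus strand: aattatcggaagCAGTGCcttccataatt
Tfrc, chr16:32631598-32631626, plus strand: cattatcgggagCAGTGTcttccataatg
Tfrc, chr16:32631663-32631691, plus strand: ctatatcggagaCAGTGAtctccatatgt
Tfrc, chr16:32631710-32631738, plus strand: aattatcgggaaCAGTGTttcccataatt
The elements of both ferritin genes had 26 of 29 bases in common, while that of Slc40a1 shared 13 of 29 with each of them. Among 11335 protein-coding genes tested for expression, 125 (1.1%) held such a match in a UTR. No match was found in the UTRs of the other 6 genes, which speaks only for this pattern in the UTRs of their annotated coding transcripts. Matches too near a transcript end to give the full run of bases were not kept. Slc11a2, one of the 6, is known to have an mRNA isoform with such an element in its 3′ UTR.

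With irisin, 5 of the 10 genes rose, 4 fell and 1 did not pass the test. The rises were both metal importers (Slc39a14 and Slc11a2), the reductase Steap4, the ferritin heavy chain Fth1 and the ferroxidase Cp. The falls were the exporter Slc40a1, heme oxygenase Hmox1, the reductase Steap3 and the ferritin light chain Ftl1. Among all 12296 genes tested, 516 (4.2%) rose and 396 (3.22%) fell at an adjusted p of 0.05 or less, together 7.42%. For 9 of the 10 genes no irisin library overlapped the PBS range, which held for 23.6% of the genes tested. The median log2 fold change was 0.28 over the 10 genes and -0.01 over all genes, and its median size, whatever the sign, was 0.78 over the 10 genes and 0.16 over all genes. The genes were chosen with results of these data known, so no test is given for the group. Levels here are CPM, counts relative to the scaled library size, as mean ± SD over 3 libraries a group. Log2 fold changes (LFC) are irisin over PBS ± standard error, with p-values from edgeR's quasi-likelihood test adjusted by the Benjamini-Hochberg method over all genes tested.

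**Figure D1:**
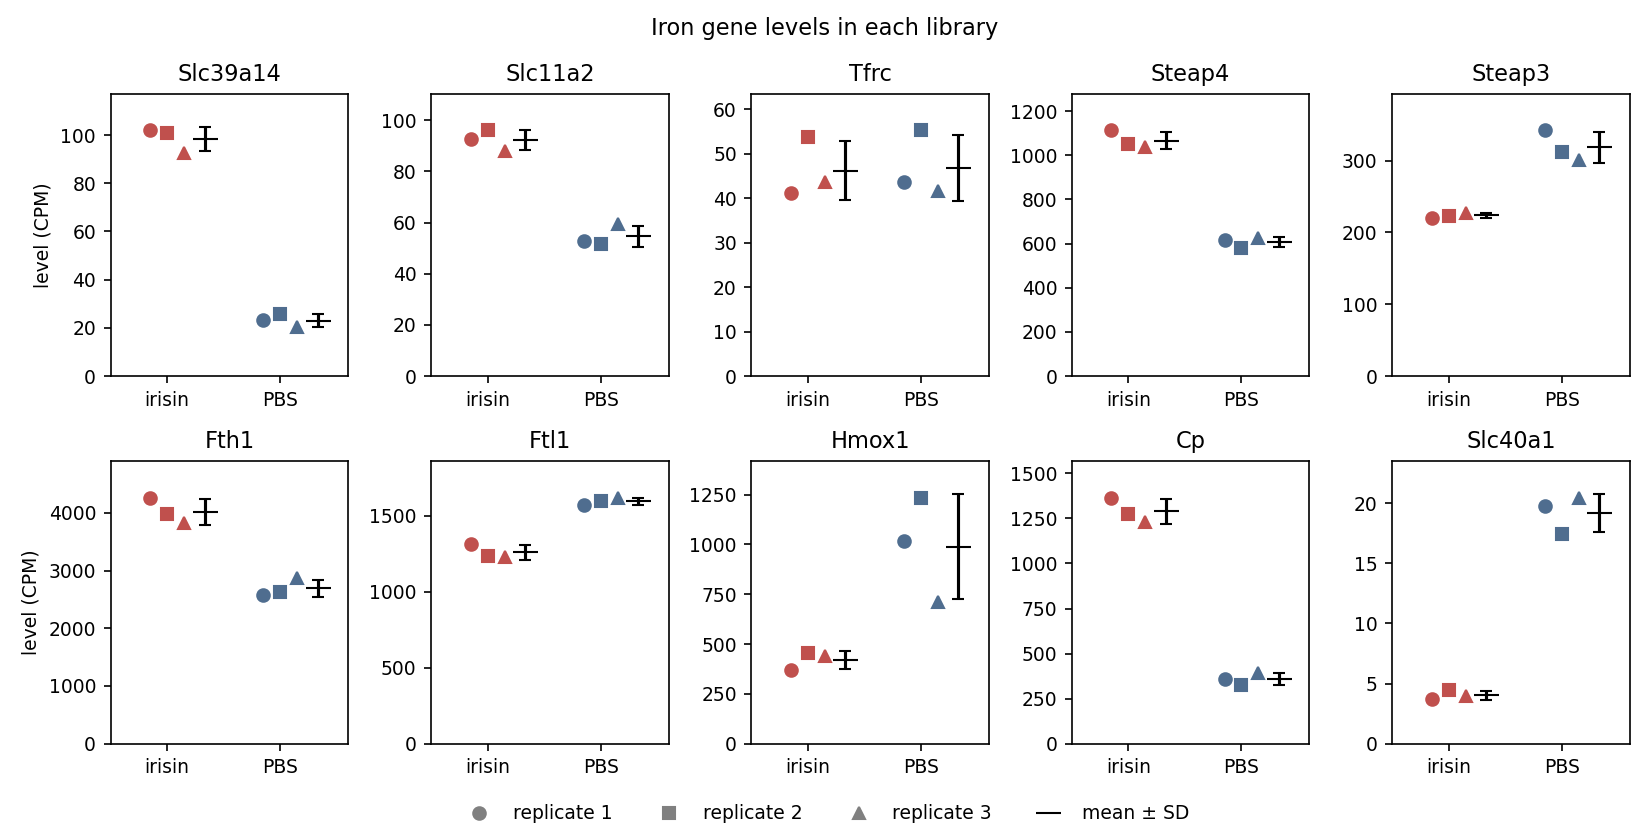
Level of each of the 10 iron genes (CPM, axis from 0) in the 3 irisin libraries (red, left) and the 3 PBS libraries (blue, right), with symbols for the replicate number and black bars for mean ± SD. The groups overlap for Tfrc and are apart for the other 9 genes, and PBS replicate 3 is the lowest PBS library for Hmox1, at 710 CPM.

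Libraries held 5271309 to 6745799 counts, and by the scaled library sizes 1 CPM stood on 5.17 to 6.89 counts. The second principal component (23.9% of variance) had PBS replicate 3 together with irisin replicate 1 on one side and the remaining 4 libraries on the other, while the first (47.1%) separated irisin from PBS. Without both libraries, a choice made after the data were seen, 5 of the 10 genes still passed as higher and 4 as lower. Over all genes the calls then numbered 1680 in place of 912, and they numbered 605 without PBS replicate 1, 589 without irisin replicate 2 and 596 without irisin replicate 3. With libraries scaled by total counts alone, 41.2% of calls over all genes were upward against 56.6%. Each of the 10 genes kept its direction under all 16 alternatives run, save that the LFC of Tfrc, not called in any, lay on both sides of 0. All but Ftl1 also kept their side of the threshold. Markers of adipose stromal cells, all 11 of them tested, summed to 28820 to 29570 CPM in irisin and 21670 to 24280 CPM in PBS, but did not move one way. Pdgfra and Col1a1 were called higher with irisin, Cd34, Lum and Thy1 lower, and the other 6 were not past the threshold. Macrophage markers summed to 71.7 to 92.9 CPM in irisin and 71.3 to 88.6 CPM in PBS, and C1qa was at 0 in every library. Csf1r made up most of that sum, at 55.3 to 65.0 CPM in irisin and 56.0 to 66.1 CPM in PBS. Ptprc was at most 0.435 CPM in any library. Of the erythroid markers, the globin genes Hba-a2, Hbb-bs and Hbb-bt were at 0 in every library, and Hba-a1 was at most 0.16 CPM. The list summed to 4 to 6.96 CPM in irisin and 5.23 to 7 CPM in PBS, mostly from Alas2 and Epor. Alas2 was at 2.56 to 3.29 CPM in irisin and 2.32 to 3.64 CPM in PBS. Epor was at 1.12 to 3.29 CPM in irisin and 2.38 to 4.42 CPM in PBS. Mature adipocyte markers did move with the groups, with 7 of 7 tested lower, summing to 47.8 to 54.9 CPM in irisin and 193 to 299 CPM in PBS, while Lep was at 0 throughout. Endothelial markers summed to 22.2 to 29.8 CPM in irisin and 35.7 to 42.8 CPM in PBS, with 1 of 2 tested lower. Most of that sum was Tek, at 18.0 to 24.6 CPM in irisin and 30.4 to 36.4 CPM in PBS. Pecam1 was at most 0.871 CPM in any library. Mesothelial markers summed to 38.6 to 50.3 CPM in irisin and 35.4 to 41.8 CPM in PBS. Here Wt1 held most, at 36.5 to 49.5 CPM in irisin and 34.6 to 40.6 CPM in PBS, and Msln at most 0.48 CPM. The part of any of these in the changes of the iron genes was not tested, and in bulk RNA fewer cells of a type and less RNA per cell cannot be told apart.

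Slc39a14 and Slc11a2, importers of iron not bound to transferrin, were higher with irisin, and the transferrin receptor was not past the threshold. Slc39a14 encodes ZIP14, a zinc transporter family member that also carries ferrous iron and manganese. Its level was 102, 101 and 92.5 CPM in irisin replicates 1, 2 and 3, against 23.2, 25.7 and 20.3 CPM in PBS replicates 1, 2 and 3. The lowest irisin library thus stood far above the highest PBS library. Slc39a14 rose 4.25-fold (LFC 2.09 ± 0.12, adjusted p = 1.6e-07), the largest rise of the 10 genes.

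Slc11a2 encodes DMT1, the proton-coupled transporter that takes ferrous iron across the cell membrane and out of endosomes. It stood at 92.8, 96.1 and 88.1 CPM in the irisin libraries, against 53.0, 51.8 and 59.5 CPM in the PBS libraries, with no overlap. The rise was 1.69-fold (LFC 0.75 ± 0.10, adjusted p = 0.000304).

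Tfrc encodes the transferrin receptor, whose mRNA carries the 4 elements shown above in its 3′ UTR. Its level was 41.3, 53.7 and 43.7 CPM in irisin and 43.7, 55.3 and 41.6 CPM in PBS. The groups covered the same range, and replicate 2 was the highest library of each. The LFC of Tfrc was -0.02 ± 0.14 (adjusted p = 0.961), with a 95% interval from -0.33 to 0.28, and changes within that interval could not be resolved with these libraries.

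Genes of the Steap family, most of which encode membrane reductases of iron and copper, did not move one way. Steap4, which is known in fat as a protein induced by feeding and inflammatory cytokines, stood at 1113, 1050 and 1037 CPM in irisin, against 618, 581 and 626 CPM in PBS. Every irisin library exceeded every PBS library, and the rise was 1.75-fold (LFC 0.81 ± 0.08, adjusted p = 2.05e-05). Steap3, the endosomal reductase that works beside transferrin uptake in red cell precursors, stood at 220, 223 and 227 CPM in irisin, against 342, 312 and 301 CPM in PBS. It fell (LFC -0.51 ± 0.08, adjusted p = 0.00143), and its irisin libraries were the tightest of the 10 genes, with a coefficient of variation of 1.64%. Both other family members, Steap1 and Steap2, were higher with irisin. Steap2 reached 161 ± 4.43 CPM in irisin and 109 ± 4.64 CPM in PBS (LFC 0.57 ± 0.08, adjusted p = 0.000786). Steap1 reached 76.1 ± 8.95 CPM in irisin and 51.1 ± 8.73 CPM in PBS (LFC 0.58 ± 0.14, adjusted p = 0.0186). The call of Steap1 was lost without PBS replicate 1 (adjusted p = 0.104), PBS replicate 2 (0.0795), irisin replicate 1 (0.0803) or irisin replicate 2 (0.054), within a range of 4.94e-05 to 0.104 over all its alternatives.

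**Figure D2:**
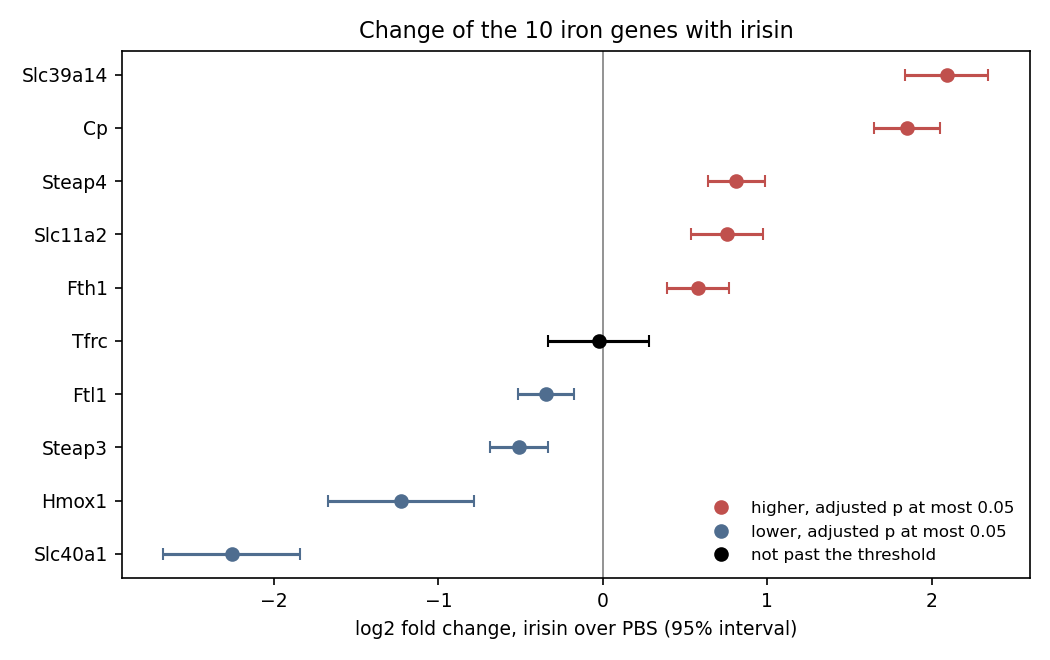
Log2 fold change of the 10 iron genes, irisin over PBS, with 95% intervals from the fit across all genes (red higher, blue lower, black not past an adjusted p of 0.05). The changes run from 2.09 for Slc39a14 to -2.26 for Slc40a1, and the interval of Tfrc spans 0.

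The mRNAs of both ferritin subunits, the most abundant of the 10 genes per kilobase, moved apart. The heavy chain Fth1 carries the ferroxidase site of the shell, and the light chain Ftl1 helps the iron core to form. Fth1 stood at 4260, 3974 and 3820 CPM in irisin, against 2574, 2633 and 2865 CPM in PBS, and rose 1.49-fold (LFC 0.58 ± 0.09, adjusted p = 0.000747). Ftl1 stood at 1314, 1232 and 1227 CPM in irisin, against 1570, 1599 and 1617 CPM in PBS, and fell (LFC -0.34 ± 0.08, adjusted p = 0.0161). Neither gene's groups overlapped. The call of Ftl1 was lost without PBS replicate 1 (adjusted p = 0.0726), PBS replicate 2 (0.0626), irisin replicate 2 (0.12) or irisin replicate 3 (0.111), and ranged from 1.17e-07 to 0.12 over all alternatives.

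Within a library the ratio of Fth1 to Ftl1 counts does not depend on how libraries are scaled. There were 3.24, 3.23 and 3.11 Fth1 counts per Ftl1 count in the irisin libraries, against 1.64, 1.65 and 1.77 in the PBS libraries. The ratio was thus 3.19 ± 0.07 in irisin and 1.69 ± 0.07 in PBS, 1.9-fold higher with irisin (exact two-sided permutation p = 0.1, the smallest that 3 against 3 allows). Leaving out any single library gave a log2 difference between 0.90 and 0.96. Fth1 and Ftl1 together made up 5275 ± 270 CPM in irisin and 4286 ± 175 CPM in PBS, 1.23-fold more with irisin (exact two-sided permutation p = 0.1). The other rows whose symbols start with Fth or Ftl, pseudogenes and Fthl17 copies, held at most 21 counts in any library. Adding pseudogene counts to their parents left the log2 difference of the ratio at 0.92. How the counting treated reads that match a pseudogene as well is not given in the sources used here, so the levels of both genes are uncertain to that extent.

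**Figure D3:**
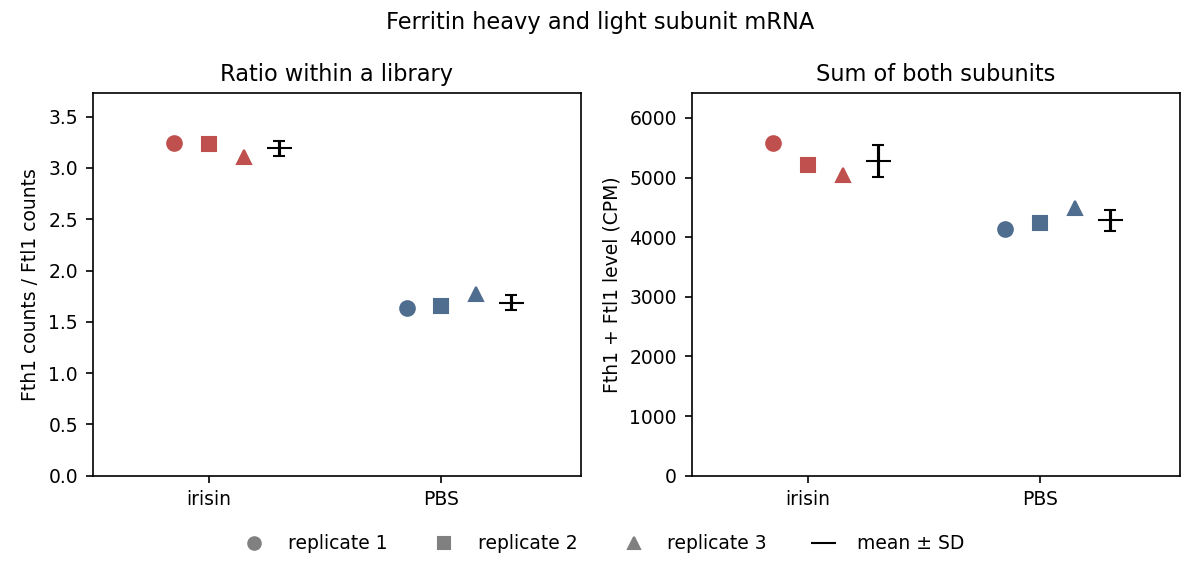
Left, Fth1 counts per Ftl1 count within each library; right, the summed level of both genes (CPM); irisin in red on the left of each panel, PBS in blue, black bars for mean ± SD over 3 libraries. The ratio lies between 3.11 and 3.24 in irisin and between 1.64 and 1.77 in PBS.

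Hmox1 encodes heme oxygenase-1, the inducible enzyme that opens the heme ring and frees its iron. It stood at 371, 454 and 442 CPM in irisin, against 1019, 1234 and 710 CPM in PBS. The groups did not overlap, but the PBS libraries were spread more widely than for any of the other 9 genes, with a coefficient of variation of 26.7%. Hmox1 was 2.34-fold lower with irisin (LFC -1.23 ± 0.19, adjusted p = 0.00656). With any single library left out the LFC lay between -1.41, without PBS replicate 3, and -1.03, without PBS replicate 2, and all 6 fits kept the call. It was -1.33 without both PBS replicate 3 and irisin replicate 1, the libraries that stood apart. The constitutive heme oxygenase Hmox2, named after its values were seen, was at 59.7 ± 1.91 CPM in irisin and 56.1 ± 2.93 CPM in PBS (LFC 0.09 ± 0.10, adjusted p = 0.742).

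Of the genes for release from the cell, the ferroxidase rose and the exporter fell. Cp encodes ceruloplasmin, the copper protein that oxidises iron as ferroportin passes it outward, made in secreted and membrane-anchored forms. Cp stood at 1364, 1273 and 1229 CPM in irisin, against 357, 327 and 391 CPM in PBS, and rose 3.6-fold (LFC 1.85 ± 0.09, adjusted p = 7e-08). Slc40a1 encodes ferroportin and was the lowest expressed of the 10 genes. It stood at 3.68, 4.45 and 3.93 CPM in irisin, on 23, 23 and 25 counts, against 19.7, 17.4 and 20.4 CPM in PBS, on 136, 110 and 111 counts. Slc40a1 was 4.78-fold lower with irisin (LFC -2.26 ± 0.19, adjusted p = 6.2e-06). No irisin library came near a PBS library for either gene. Heph, the membrane ferroxidase hephaestin, fell to 36.0 ± 3.98 CPM in irisin, against 79.8 ± 2.72 CPM in PBS (LFC -1.15 ± 0.11, adjusted p = 1.81e-05), so that the ferroxidase genes Cp and Heph moved in opposite directions.

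The 4 genes with a match to the iron-responsive element did not share a direction. Of those with the match in the 5′ UTR, Fth1 rose while Ftl1 and Slc40a1 fell, and Tfrc with its 3′ matches was not past the threshold. Slc11a2, known to carry an element that the search did not find, rose. Of the 125 protein-coding genes tested that had such a match, these 4 included, 10 rose and 5 fell. Fth1 was among those rises, and Ftl1 and Slc40a1 among those falls, all chosen with results of these data known. Over all 12296 genes tested, protein-coding or not, 516 (4.2%) rose and 396 (3.22%) fell. The median LFC was 0.00 over the 125 and -0.01 over all genes. Counts of mRNA do not measure translation, which the 5′ elements govern.

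Compared per kilobase of 1 annotated coding transcript a gene, the order of levels was led by Fth1 and Ftl1 in both groups. That transcript was the one with the longest coding sequence, and the order depends on this choice. For Slc39a14 it has 2098 bases, against 10550 over all annotated exons, and for Tfrc 4890 against 6185. In irisin Fth1 reached 4320 ± 241 CPM per kilobase and Ftl1 1300 ± 50.4, followed by Steap4 (338 ± 12.8), Cp (282 ± 15.1) and Hmox1 (269 ± 28.7). In PBS Fth1 reached 2900 ± 166 CPM per kilobase and Ftl1 1650 ± 24.1, followed by Hmox1 (629 ± 168), Steap4 (193 ± 7.52), Steap3 (111 ± 7.35) and Cp (78.5 ± 7.01). Cp thus ranked sixth in PBS and level with Hmox1 in irisin, where the libraries of the pair overlapped. At the low end, Slc39a14 (44.1 to 48.6 in irisin, 9.65 to 12.2 in PBS) lay above Tfrc in irisin (8.44 to 11 in irisin, 8.51 to 11.3 in PBS), while in PBS their libraries overlapped. Slc40a1 was last in both groups, at 1.19 ± 0.116 CPM per kilobase in irisin and 5.70 ± 0.467 in PBS.

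Other genes of iron and heme metabolism were read from 5 lists. The lists were written with earlier results of these data known. Shares called in a list may reflect that choice, so no test is given for any list. Of 82 symbols 80 were in the table and 68 had enough counts to test; 6 rose and 4 fell, that is 14.7% called against 7.42% of all genes, and the median LFC was -0.03. Among carriers and uptake genes 3 of 8 rose and 1 fell. Besides Steap1 and Steap2 the third rise was Lcn2, a lipocalin that binds bacterial iron carriers, at 727 ± 126 CPM in irisin and 26.8 ± 5.97 CPM in PBS (LFC 4.75 ± 0.19, adjusted p = 5.28e-07). The gene that fell was Scara5, known in mice as a receptor for ferritin, at 200 ± 11.3 CPM in irisin and 326 ± 14.8 CPM in PBS (LFC -0.71 ± 0.08, adjusted p = 0.000107). Trf, the gene of transferrin itself, did not pass (1352 ± 84.1 CPM in irisin, 1163 ± 89.5 CPM in PBS, adjusted p = 0.202), nor did Slc39a8, the importer ZIP8 nearest to ZIP14 (7.73 to 9.27 CPM in irisin, 4.79 to 7.13 CPM in PBS, adjusted p = 0.276). Both were named after their values were seen.

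Among heme genes 3 of 12 rose and 0 fell, 25.0% called against 7.42% of all genes. Hpx, the plasma heme scavenger hemopexin, stood at 10.6, 13.3 and 14.1 CPM in irisin, against 1.16, 0.79 and 1.47 CPM in PBS, on 5 to 8 counts a PBS library (LFC 3.46 ± 0.29, adjusted p = 5.76e-06). Hp, the hemoglobin-binding haptoglobin, rose to 7961 ± 341 CPM in irisin, against 1964 ± 102 CPM in PBS (LFC 2.02 ± 0.09, adjusted p = 2.5e-08). Bach1, a heme-sensing repressor known to act on Hmox1 and the ferritin genes, stood at 18.2, 24.7 and 17.9 CPM in irisin, against 7.55, 11.2 and 5.34 CPM in PBS. Its groups did not overlap, and it rose 2.49-fold (LFC 1.32 ± 0.24, adjusted p = 0.00421).

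Of the genes for iron sensing and ferritin turnover, 1 of 12 fell and 0 rose, a share called of 8.33% that is near the 7.42% of all genes. That gene was Aco1, which encodes the cytosolic aconitase that doubles as iron regulatory protein 1, at 160 ± 3.05 CPM in irisin and 223 ± 14.1 CPM in PBS (LFC -0.48 ± 0.08, adjusted p = 0.00269). Ireb2, the gene of the partner iron regulatory protein, was at 25.8 ± 2.59 CPM in irisin and 24.8 ± 4.95 CPM in PBS (LFC 0.05 ± 0.16, adjusted p = 0.924). Ncoa4, the receptor that takes ferritin to lysosomes, was at 51.3 ± 6.78 CPM in irisin and 42.2 ± 4.01 CPM in PBS (adjusted p = 0.255). Ireb2 and Ncoa4 were named after their values were seen. Of 7 genes tested for ferroxidase action and export regulation, Heph alone was called, a share of 14.3% against 7.42% of all genes. Hamp, the gene of the ferroportin-binding hormone hepcidin, had at most 1 count in any library and was named after its values were seen.

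Mitochondrial iron import, heme synthesis and iron-sulfur cluster genes held 1 fall and 0 rises in 29 tested, a share of 3.45% against 7.42% of all genes. The fall was Alas1, the first enzyme of heme synthesis, at 79.0 ± 9.18 CPM in irisin and 109 ± 15.2 CPM in PBS (LFC -0.47 ± 0.12, adjusted p = 0.0344). That call was lost without PBS replicate 1 (adjusted p = 0.068), irisin replicate 2 (0.186) or irisin replicate 3 (0.133), within a range of 0.000549 to 0.186 over all alternatives.

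**Figure D4:**
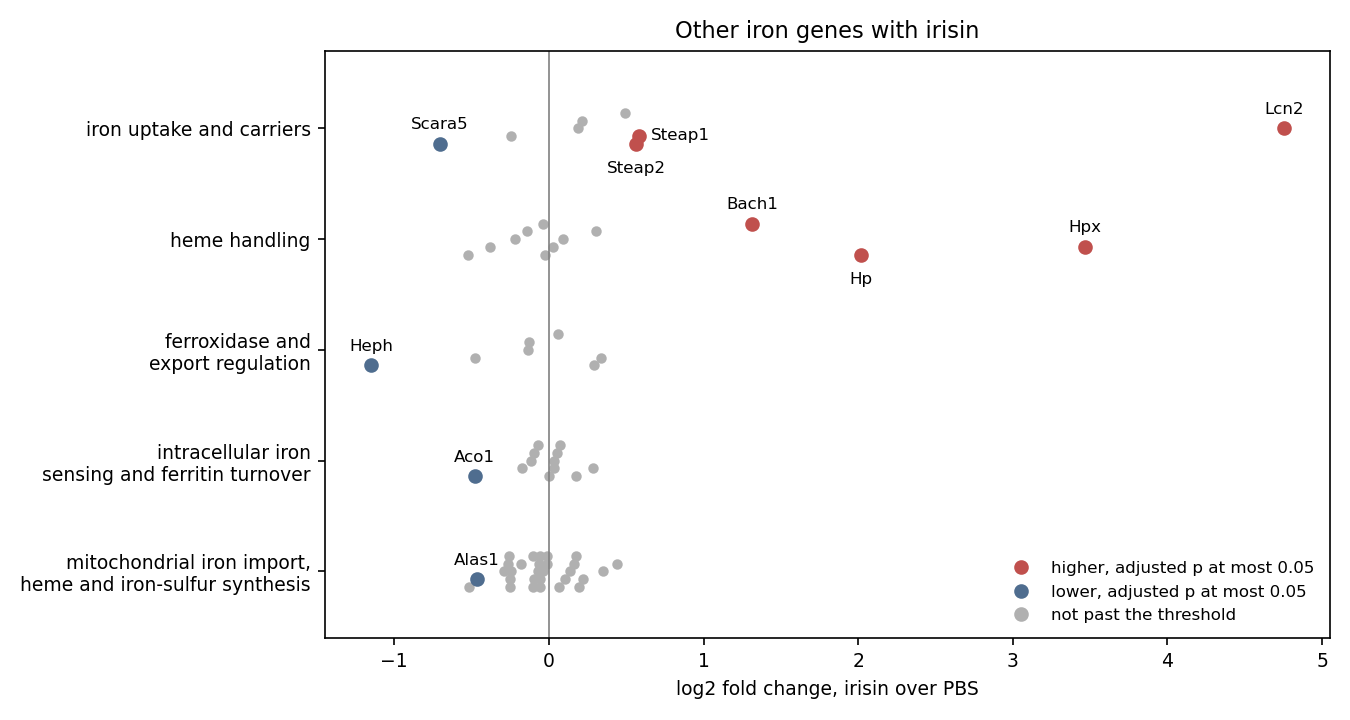
Log2 fold change, irisin over PBS, of the 68 other iron genes tested, one row of points a list (the vertical offset within a row carries no meaning). Called genes are named, in red where higher (6) and blue where lower (4), and the other 58 in grey did not pass.

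RefSeq promoter windows (build GRCm38.p6, 250 bases before to 50 after a start) were on hand for 6 of the 10 genes, in 12 windows. Slc40a1, Hmox1, Slc11a2 and Slc39a14 had no window and were not searched, nor was any sequence farther from a start. They were searched on both strands for the cores bound by the factors named next. TTGCNNAA, a C/EBP core, occurred in 4 of the 12, from Steap3, Cp, Steap4 and Fth1, and in 10.8% of all 32851 windows. TTCNNNGAA, a STAT core that reads the same on both strands, occurred in 1 of the 12, that of Steap4, and in 8.3% of all. The antioxidant response core TGACNNNGC occurred in 0 of the 12, against 12.4% of all. The NF-κB core was searched in 1 strict form only, which occurred in 0 of the 12 and in 0.411% of all. A form that rare would seldom be met in 12 windows, so its absence there says little. Looser forms of the NF-κB core were not searched, and the windows may hold them. ACGTG, a hypoxia response core, occurred in both windows of Tfrc and in 19.6% of all. Such a match is a description of letters, and binding was not measured. The 250 bases before the start of Steap4, the one window with both a STAT and a C/EBP core, are printed from RefSeq with those cores in capitals, STAT first.
Steap4, chr5:7960222-7960471, plus strand: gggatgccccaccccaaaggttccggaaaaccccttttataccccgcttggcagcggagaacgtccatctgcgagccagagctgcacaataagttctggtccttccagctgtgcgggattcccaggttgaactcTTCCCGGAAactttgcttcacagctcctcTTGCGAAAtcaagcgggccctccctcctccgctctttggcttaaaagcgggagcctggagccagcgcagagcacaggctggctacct

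All 10 genes are annotated as protein-coding in GENCODE M21. In its mm10 coordinates Slc39a14 lies at chr14:70303469-70351425, Slc11a2 at chr15:100387898-100425072, Tfrc at chr16:32608920-32632794, Steap4 at chr5:7960457-7982213 and Steap3 at chr1:120190757-120272705. Fth1 lies at chr19:9980598-9985098, Ftl1 at chr7:45457944-45459884, Hmox1 at chr8:75093621-75100589, Cp at chr3:19957054-20009145 and Slc40a1 at chr1:45908068-45926523. Exons of Cp share 108 bases with Hps3 on the opposite strand, a gene with 86 to 162 counts a library. Exons of Slc11a2 share 402 bases with Gm5475 and those of Ftl1 355 bases with Gm10252, both on the opposite strand and with at most 2 counts in any library. Whether counting used strand is not given in the sources used here, so the reads of such a pair cannot be told apart there. Exons of Ftl1 also share 109 bases with the microRNA gene Gm22133 on the same strand, where strand would not separate reads. Gm22133 had 0 counts in every library.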

How the data were processed

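The authors deposited raw whole-number counts per gene symbol for 6 libraries, made with featureCounts and STAR 2.7.3a on mm10 per the submitters' processing notes. The sources used here do not give the annotation release, the strand setting or the rule for multi-mapped reads. Columns were matched to samples by library title. With edgeR 4.0.16 (R 4.3.3), 12296 of 55011 genes passed filterByExpr at a count minimum of 10. They were scaled by TMM and fitted, irisin against PBS, with the quasi-likelihood test in its robust form, adjusted over all genes with threshold 0.05. The standard error is the LFC size divided by the root of the F statistic, and 95% intervals use it. Intervals cover the spread between libraries only. Marker sums use the same scaling. The fit was tested on simulated data. Within groups, pairs of libraries gave a chi-square of 2.74 to 14.8 per degree of freedom, so no pair differed by counting noise alone. Separate preparations from the same culture could also differ by more, so these values do not show that the cultures were separate.

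The 10 genes, the other lists and the naming rule (all 10, every called gene of the lists, and ferritin pseudogenes) were chosen with earlier results of these data known. Genes outside the rule are marked. Alternatives changed the scaling (RLE, upper quartile or total counts), the tool (DESeq2 1.42.0 or limma 3.58.1 voom with sample weights), the robust step, the count filter (none, or a minimum of 50), the replicate block or the libraries left out.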

Additional observations from a re-analysis of the deposited data

How the results depend on the processing

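Of the 10 iron genes, 9 kept their side of the threshold in all 16 alternatives, and Ftl1 in 11 of 16. Members called higher numbered 5 throughout and members called lower 3 to 4. The other iron genes called higher numbered 5 to 7 with 1 library left out and up to 9 otherwise, those lower 3 to 4 and up to 5. The Fth1 to Ftl1 log2 difference stayed between 0.90 and 0.96. Over all genes, leaving out 1 library gave 336 to 705 higher and 238 to 585 lower. Total counts gave 602 lower, for which the cause was not tested. Without both libraries that stood apart (PBS replicate 3, irisin replicate 1), 892 were higher and 788 lower, and 869 of the 912 calls were shared. The pairs kept had the lowest chi-square within their groups, 4.15 and 2.74 per degree of freedom. The titles number replicates 1 to 3 in both groups. Deviations of same-numbered libraries from their group means correlated at -0.238, 0.164 and -0.177. Each mean rests on 3 libraries, so that a single divergent library weighs on every value. These correlations therefore cannot decide whether the numbers pair the libraries. The replicate block gave 422 higher and 269 lower genes, and Ftl1 (adjusted p = 0.0905), Steap1 (0.0574) and Alas1 (0.0616) were not called in it. Low counts limit Slc40a1 and Hpx most.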
